A study of Pyrocoelia pectoralis with 6 samples.

Results

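The regucalcin genes of the firefly Pyrocoelia pectoralis were the genes whose description in the authors' deposited table contains the word Regucalcin. There were 6 such genes of 12533 listed: RI129_001304 (symbol rgn), RI129_001305 (RGN), RI129_001306 (RGN), RI129_001641 (Rgn), RI129_002695 (Rgn) and RI129_004385 (Rgn). RI129_001304, RI129_001305 and RI129_001306 carry consecutive identifiers and are called the adjacent genes here, although their positions in the genome were not analysed here. The description rests on likeness to proteins of other species, and several genes therefore share it.

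Messenger RNA was measured in 3 libraries of the light-making luminous organ and in 3 libraries of the non-luminous organ, both from males. The labels give no strain, age or treatment, and do not say which tissue the non-luminous organ was or whether libraries came from separate animals or pools. The spread that enters each p-value is that between libraries, and part of it may be technical. In whole-organ RNA, fewer cells of a type and less RNA per cell cannot be told apart.

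Regucalcin, also named senescence marker protein 30 in mammals, is a metal-binding enzyme that opens the ring of sugar lactones. Its lactonase activity serves vitamin C synthesis in most mammals, and it has been linked there to the control of cytosolic calcium. In the firefly Photinus pyralis, a protein of this family was described as the luciferin-regenerating enzyme, which acts on oxyluciferin, the product of the light reaction. Which of the 6 genes, if any, corresponds to that enzyme is not stated in the table.

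All 6 genes shared 10 Gene Ontology (GO) terms, among them gluconolactonase activity, calcium ion binding, zinc ion binding and L-ascorbic acid biosynthetic process. They were the 6 genes of the table with the term gluconolactonase activity. The adjacent genes had 10 GO terms each and no pathway. RI129_001641, with 40 terms, and RI129_002695, with 39, were also placed in the pentose phosphate pathway and in ascorbate and aldarate metabolism. RI129_004385 had 39 terms and no pathway.

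Levels are FPKM, read numbers scaled to gene length and library total, so levels of different genes can be compared. Library totals recovered from the steps of the FPKM values were 18.04 to 20.42 M reads (M for mega). The table's lengths, recovered the same way, were multiples of 3 in 96.3% of the genes with at least 100 reads in a library, and are called coding lengths. They were 933 bases for RI129_001304, 894 for RI129_001305, 900 for RI129_001306, 1119 for RI129_001641 and 924 for RI129_004385. RI129_002695 had a length of 1057 bases, which is not a multiple of 3.

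Luminous replicate 1 stood apart from the other luminous libraries. On the second principal component, which held 15.7% of the variance, it lay at 42.2, against -19.3 and -23.1 for luminous replicates 2 and 3. Genes that averaged 1 FPKM or more were tested, which left 9863. Of these, 149 (1.51%) were at least 5 times higher in luminous replicate 1 than in either other luminous library. The same count was 44 genes for luminous replicate 2, 13 for luminous replicate 3 and 6 to 13 for each non-luminous library. The light organ marker, a luciferase-like gene described as Luciferin 4-monooxygenase (RI129_003463), had 531.6, 374.3 and 292 FPKM in luminous replicates 1, 2 and 3, against 0.322, 0.595 and 0.5049 FPKM in the non-luminous replicates. By this marker all 6 libraries matched their labels, and luminous replicate 1 had the highest level. This check rests on 1 gene chosen with its levels known, since 31 genes carry the same description and, of the 21 tested, 2 were called higher in the luminous organ and 12 lower. The organ difference of each regucalcin gene is given with and without this library.

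RI129_004385 was the most abundant regucalcin gene in 5 of the 6 libraries, and the only one of the 6 called between the organs when all libraries were used. It had 55.73, 97.37 and 99.68 FPKM in the luminous libraries, against 208, 240 and 272.6 FPKM in the non-luminous libraries. Every luminous library lay below every non-luminous library, and luminous replicate 1 was the lowest of all. Its mean was 84.3 ± 24.7 FPKM over the luminous libraries, against 240 ± 32.3 FPKM over the non-luminous ones (SD, n = 3 each), 2.85-fold lower. These levels rested on 1032 to 1837 reads per luminous library and 3624 to 4544 per non-luminous library. Luminous minus non-luminous, the difference in log2(FPKM + 1) was -1.54 (SE 0.233, 95% interval -2.08 to -0.99) with an adjusted p of 0.00482 by limma. Without luminous replicate 1 it was -1.27 (adjusted p = 0.00182 by limma).

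The call of 1 gene of 6 stands against a background of 26.6% of tested genes called in either direction, 9.63% called higher and 17.0% called lower. Groups did not overlap for 1 of the 6 genes, against 46.1% of tested genes, in 28.7% with the luminous organ lower. A single call among 6 genes is thus no more than the whole table gave.

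**Figure D1:**
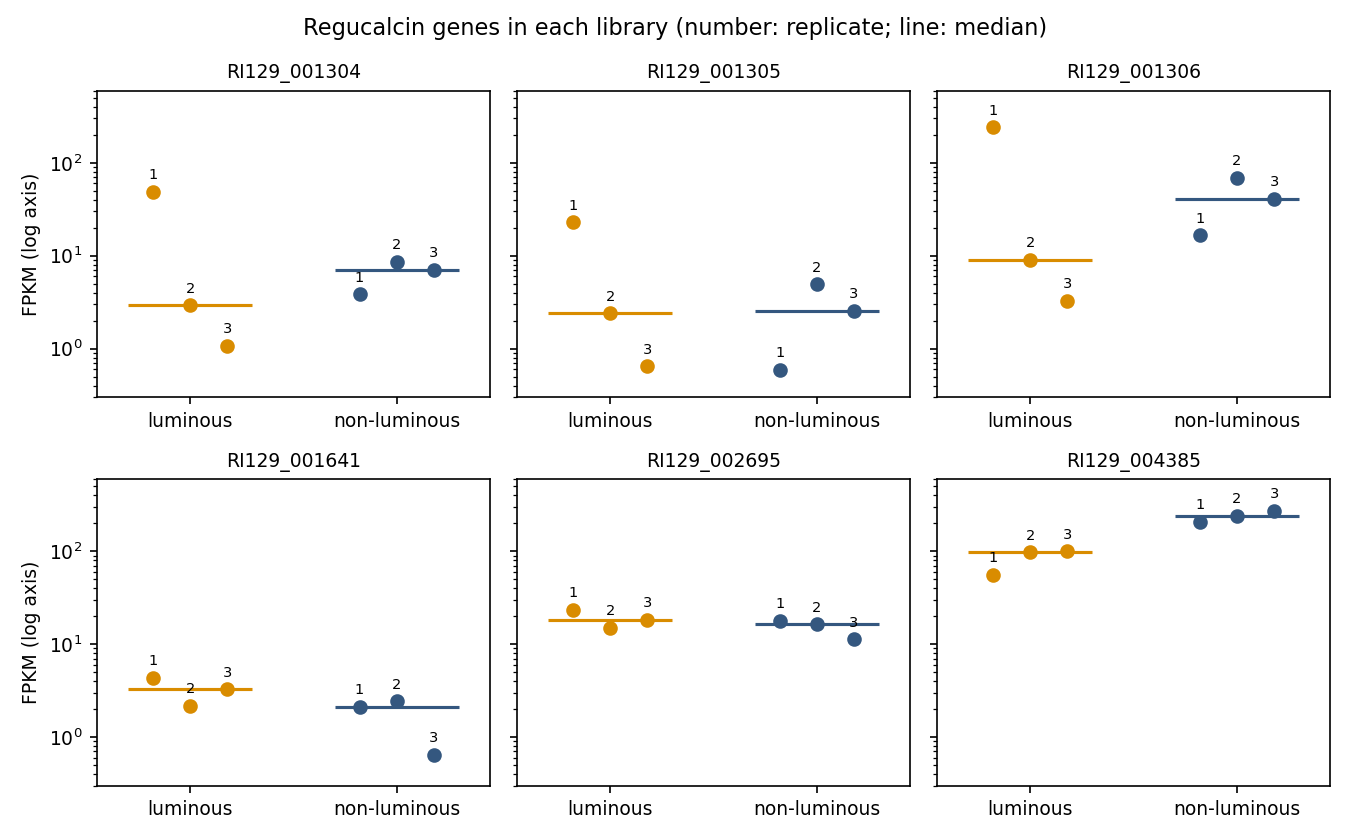
FPKM of each regucalcin gene in each library, on a log axis shared by the panels; points are single libraries with their replicate number, the left column of points in each panel is the luminous organ and lines are medians. RI129_004385 lies at 55.73 to 99.68 FPKM in luminous libraries and at 208 to 272.6 FPKM in non-luminous ones, while RI129_001304, RI129_001305 and RI129_001306 each have 1 luminous point far above the other points.

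RI129_001306 was the adjacent gene with the highest level and the largest spread. It had 240.7, 9.088 and 3.284 FPKM in luminous replicates 1, 2 and 3, against 16.5, 68.84 and 40.9 FPKM in non-luminous replicates 1, 2 and 3. Luminous replicate 1 was the highest library and luminous replicates 2 and 3 were the lowest, so the non-luminous libraries lay inside the luminous range. The highest luminous value was 73.3 times the lowest, against 4.17 times in the non-luminous organ. The reads behind the luminous values were 4341, 167 and 56, with 95% Poisson intervals of 4213 to 4472, 143 to 194 and 42.3 to 72.7 that cover counting error only. None of these intervals overlap, so counting error is smaller than the gaps between the libraries. The mean was 84.4 ± 135 FPKM over the luminous libraries, against 42.1 ± 26.2 FPKM over the non-luminous ones (SD, n = 3 each). The log2 difference was -0.76 (SE 1.37, 95% interval -3.96 to 2.43) with an adjusted p of 0.721 by limma, so the sign on the log scale is opposite to that of the means.

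RI129_001304 showed the same order of libraries at a lower level. It had 48.67, 2.94 and 1.075 FPKM in luminous replicates 1, 2 and 3, against 3.865, 8.577 and 7.071 FPKM in non-luminous replicates 1, 2 and 3. Again luminous replicate 1 was above, and luminous replicates 2 and 3 below, every non-luminous library. Its luminous range spanned 45.3-fold and its non-luminous range 2.22-fold, from 910, 56 and 19 luminous reads and 68, 147 and 119 non-luminous reads. The log2 difference was 0.04 (SE 1.06, 95% interval -2.44 to 2.51), with an adjusted p of 0.985 by limma and means of 17.6 ± 27 FPKM over the luminous libraries, against 6.5 ± 2.41 FPKM over the non-luminous ones (SD, n = 3 each). An interval this wide leaves a large change in either direction undetected.

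RI129_001305 was the lowest of the adjacent genes in every library. It had 22.88, 2.411 and 0.6494 FPKM in luminous replicates 1, 2 and 3, against 0.5932, 4.932 and 2.543 FPKM in non-luminous replicates 1, 2 and 3. Luminous replicate 1 was again the highest library, but here luminous replicates 2 and 3 lay within the non-luminous range. The lowest values rested on 11 reads in luminous replicate 3 and 10 reads in non-luminous replicate 1, with Poisson intervals of 5.49 to 19.7 and 4.8 to 18.4. The log2 difference was 0.67 (SE 0.953, 95% interval -1.56 to 2.90), with an adjusted p of 0.646 by limma. Its means were 8.65 ± 12.4 FPKM over the luminous libraries, against 2.69 ± 2.17 FPKM over the non-luminous ones (SD, n = 3 each).

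Leaving out luminous replicate 1 turned the direction for RI129_001304 and RI129_001305, and made the difference of RI129_001306 larger. RI129_001306 then averaged 6.19 FPKM in luminous replicates 2 and 3 and 42.1 FPKM in the non-luminous organ, a log2 difference of -2.50 (SE 0.582, adjusted p = 0.0197 by limma). RI129_001304 averaged 2.01 FPKM in luminous replicates 2 and 3 and 6.5 FPKM in the non-luminous organ, a log2 difference of -1.34 (SE 0.387, adjusted p = 0.0411 by limma). RI129_001305 was at -0.44 (SE 0.575, adjusted p = 0.61 by limma). With RI129_004385, 3 of the 6 regucalcin genes were then called, all lower in the luminous organ, against 26.8% of tested genes called in either direction and 17.2% called lower. The same 3 genes lay below every non-luminous library in luminous replicates 2 and 3, as did 36.4% of tested genes. These values rest on 2 luminous libraries.

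**Figure D2:**
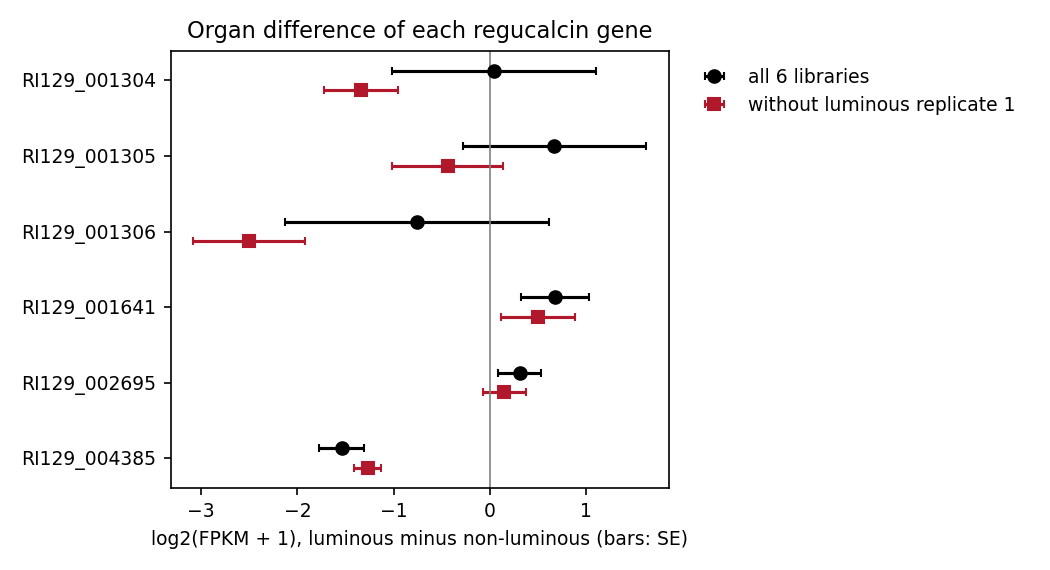
Log2 difference of each regucalcin gene, luminous minus non-luminous in log2(FPKM + 1), from all 6 libraries (circles) and without luminous replicate 1 (squares); bars are standard errors. RI129_004385 moves little, from -1.54 with all libraries to -1.27 without that library, whereas RI129_001306 stands at -0.76 with it and -2.50 without it.

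The excess in luminous replicate 1 was ranked over all 9863 tested genes by log2(FPKM + 1) in that library minus the higher of luminous replicates 2 and 3. RI129_001306 ranked 1 with an excess of 4.58, which corresponds to 26.5 times the FPKM of luminous replicate 2. RI129_001304 ranked 23 with an excess of 3.66, and RI129_001305 ranked 63 with 2.81. The other regucalcin genes lay further down, RI129_002695 at 0.34 (rank 1194), RI129_001641 at 0.32 (rank 1278) and RI129_004385 at -0.83 (rank 8675). Thus 3 of the 6 regucalcin genes were among the 149 genes at least 5 times higher in luminous replicate 1. This describes 1 library, with no replicate check.

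**Figure D3:**
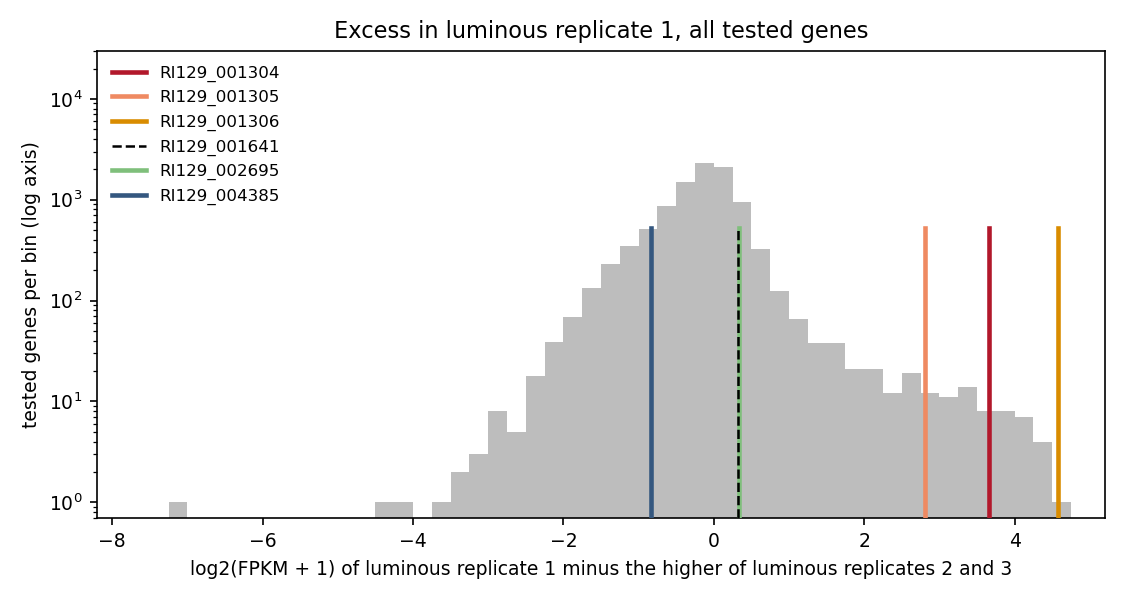
Excess of luminous replicate 1 over the higher of luminous replicates 2 and 3 on the log2(FPKM + 1) scale, as a histogram of the 9863 tested genes with a log count axis; vertical lines mark the 6 regucalcin genes. RI129_001306 at 4.58, RI129_001304 at 3.66 and RI129_001305 at 2.81 lie in the right tail, and RI129_001641 and RI129_002695 nearly coincide.

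The spread between libraries of an organ was above the median of tested genes for all 6 regucalcin genes in both organs. Among luminous libraries it was largest for the adjacent genes. The SD of log2(FPKM + 1) among luminous libraries was 3.07 for RI129_001306, 2.42 for RI129_001304 and 1.99 for RI129_001305, ranks 2, 25 and 53 of 9863, against a median of 0.24 over tested genes. Among non-luminous libraries it was 1.01, 0.51 and 0.96 in the same order of genes, ranks 64, 636 and 82, against a median of 0.17. For RI129_001641, RI129_002695 and RI129_004385 the SD was 0.37, 0.30 and 0.47 among luminous libraries, and 0.58, 0.33 and 0.19 among non-luminous libraries. In the non-luminous organ RI129_001641 therefore varied more than RI129_001304.

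RI129_002695 had overlapping levels in the organs. It had 23.46, 15.11 and 18.28 FPKM in the luminous libraries, against 17.81, 16.33 and 11.28 FPKM in the non-luminous libraries, with the highest value in luminous replicate 1. Means were 18.9 ± 4.22 FPKM over the luminous libraries, against 15.1 ± 3.43 FPKM over the non-luminous ones (SD, n = 3 each). The log2 difference was 0.31 (SE 0.224, 95% interval -0.22 to 0.83) with an adjusted p of 0.347 by limma. Without luminous replicate 1 it was 0.15 (adjusted p = 0.655 by limma).

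RI129_001641 was the least abundant of the 6 by its mean over all libraries. It had 4.326, 2.188 and 3.255 FPKM in the luminous libraries, against 2.133, 2.432 and 0.6441 FPKM in the non-luminous libraries. The groups overlapped through luminous replicate 2, and the lowest value, in non-luminous replicate 3, rested on 13 reads (Poisson interval 6.92 to 22.2). Means were 3.26 ± 1.07 FPKM over the luminous libraries, against 1.74 ± 0.958 FPKM over the non-luminous ones (SD, n = 3 each). The log2 difference was 0.68 (SE 0.352, 95% interval -0.14 to 1.50) with an adjusted p of 0.196 by limma, and 0.50 without luminous replicate 1 (adjusted p = 0.368 by limma).

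By median FPKM the order in the luminous organ was RI129_004385 (97.4), RI129_002695 (18.3), RI129_001306 (9.09), RI129_001641 (3.25), RI129_001304 (2.94) and RI129_001305 (2.41). Only the step below RI129_004385 separated ranges that did not overlap. In the non-luminous organ the order was RI129_004385 (240), RI129_001306 (40.9), RI129_002695 (16.3), RI129_001304 (7.07), RI129_001305 (2.54) and RI129_001641 (2.13). There the ranges of RI129_004385 and RI129_001306, and of RI129_002695 and RI129_001304, did not overlap, while the other neighbours in the order did.

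The make-up of the summed regucalcin level differed between libraries. RI129_004385 gave 14.1, 75.4 and 79% of the sum in luminous replicates 1, 2 and 3, and 83.6, 70.4 and 81.4% in the non-luminous replicates. The adjacent genes together gave 78.9, 11.2 and 3.97% in the luminous replicates and 8.42, 24.1 and 15.1% in the non-luminous replicates. Luminous replicate 1 was thus the 1 library in which RI129_004385 was not the leading gene. Among the adjacent genes, RI129_001306 held 62.9 to 77.1% of their sum in the luminous libraries and 78.7 to 83.6% in the non-luminous libraries, so it led them in every library.

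The sum over the 6 genes was 396, 129 and 126 FPKM in luminous replicates 1, 2 and 3, against 249, 341 and 335 FPKM in the non-luminous replicates. Luminous replicate 1 had the highest sum and the other luminous libraries the lowest. Means were 217 ± 155 FPKM over the luminous libraries, against 308 ± 51.6 FPKM over the non-luminous ones (SD, n = 3 each). The difference of -91.3 FPKM had p = 0.4 in a two-sided exact permutation test, in which 3 libraries against 3 allow no p below 0.1. It was -181 FPKM without luminous replicate 1 (exact permutation p = 0.1, the smallest possible) and turned to 64.6 FPKM when RI129_004385 was left out of the sum.

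**Figure D4:**
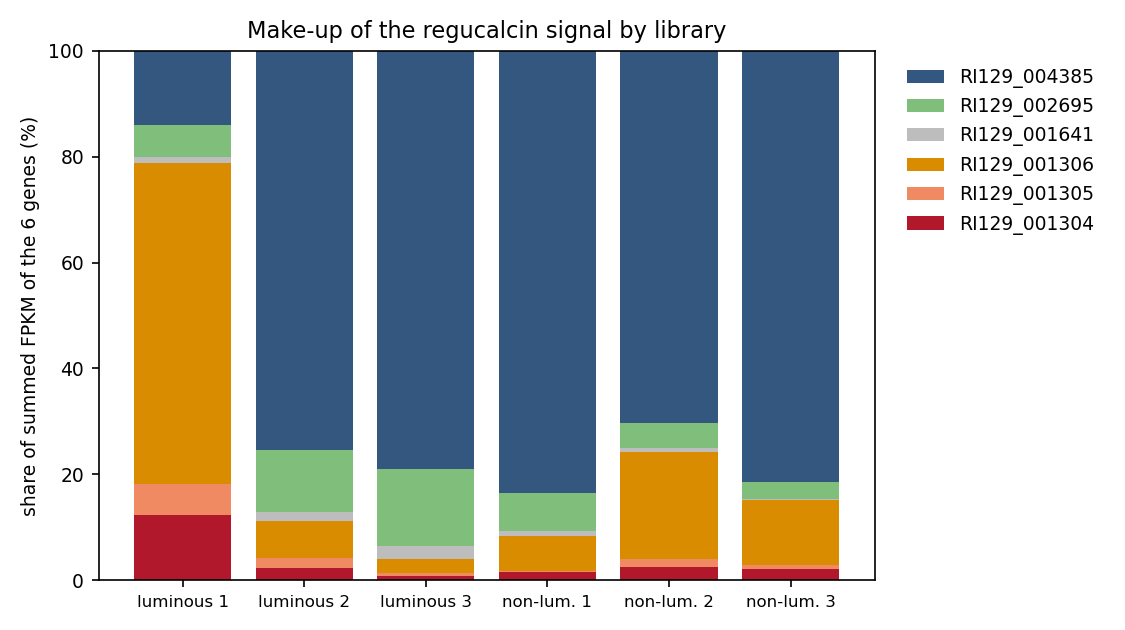
Share of each regucalcin gene in the summed FPKM of the 6 genes, in percent, 1 bar per library with the luminous libraries on the left. RI129_004385 fills 70.4 to 83.6% of every bar except that of luminous replicate 1, where it fills 14.1% and the adjacent genes together fill 78.9%.

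The adjacent genes varied together over the libraries. Pearson's r of log2(FPKM + 1) over the 6 libraries was 0.97 between RI129_001304 and RI129_001306, 0.94 between RI129_001304 and RI129_001305 and 0.89 between RI129_001305 and RI129_001306. Over the 5 libraries without luminous replicate 1 these were 0.99, 0.76 and 0.75. RI129_001641 and RI129_002695 had r = 0.96 over 6 libraries and 0.94 over 5. RI129_004385 had r = -0.09 with RI129_001306 over 6 libraries and 0.89 over 5, so that its relation to the adjacent genes depends on luminous replicate 1. These correlations describe 6 libraries in 2 organs that all genes share.

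The genes whose levels were most like those of the adjacent genes were taken from described genes that averaged 5 FPKM or more. As they were chosen by likeness over these same libraries, the pattern they share with the adjacent genes follows from that choice. For RI129_001304 the most alike were a gene described as chymotrypsin-1, a digestive protease (RI129_013139), and IDH1, cytosolic isocitrate dehydrogenase, which makes NADPH (RI129_005747), each with r = 0.992 over 6 libraries. RI129_013139 had 1296, 75.7 and 31.06 FPKM in luminous replicates 1, 2 and 3, against 62.42, 215.6 and 157.8 FPKM in the non-luminous replicates. IDH1 had 239.2, 16.45 and 5.248 FPKM in luminous replicates 1, 2 and 3, against 15.86, 50.45 and 35.65 FPKM in the non-luminous replicates. Both were highest in luminous replicate 1 and lowest in luminous replicate 3, as RI129_001304 was.

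For RI129_001305 the most alike gene was a phospholipase A2, which releases fatty acids from membrane lipids (RI129_010671, r = 0.995). It had 36.48, 2.345 and 0.7776 FPKM in luminous replicates 1, 2 and 3, against 0.586, 6.216 and 3.982 FPKM in the non-luminous replicates. The next were mfsd8, a membrane transporter (RI129_001133), and a gene described as a probable multidrug resistance-associated protein, an ABC transporter (RI129_005426), each with r = 0.990. For RI129_001306 it was Gld, a glucose dehydrogenase of the kind that oxidises glucose to its lactone (RI129_007921, r = 0.995). Gld had 17.02, 1.474 and 0.5296 FPKM in luminous replicates 1, 2 and 3, against 2.779, 9.528 and 6.057 FPKM in the non-luminous replicates. An integral membrane protein gene (RI129_006000, r = 0.992) and Crocc, which codes for the ciliary rootlet protein rootletin (RI129_001845, r = 0.991), came next. None of these named genes was called between the organs with all libraries, with adjusted p between 0.521 and 0.964 by limma. Without luminous replicate 1, Gld (-1.75, adjusted p = 0.0276 by limma) and RI129_006000 (-1.65, adjusted p = 0.0231 by limma) were called lower, as RI129_001306 was. Both were chosen by likeness to RI129_001306, so these calls are no separate evidence.

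In all, 88 genes other than the regucalcins had r of at least 0.95 with 1 or more of the adjacent genes, and 9 of them with all 3. Each of the 88 was highest among luminous libraries in luminous replicate 1, and 38 were at least 5 times higher there than in luminous replicates 2 and 3. In 64 of the 88, non-luminous replicate 2 was also the highest non-luminous library. The 88 were chosen by likeness over these same 6 libraries, so these counts follow largely from that choice. Of the 88, 3 were glucose dehydrogenases, 3 matched the words used for midgut genes, 1 was in the luciferin list, 1 in the calcium list and 0 in the sugar list given below.

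Markers of other tissues moved with the adjacent genes only in part. Of 98 genes matched by midgut words such as trypsin and chymotrypsin, 55 were tested. Of these, 10 (18.2%) had luminous replicate 1 at no less than 5 times luminous replicates 2 and 3, against 1.51% of all tested genes. The 10 include RI129_004078 and RI129_010622, which had 0 FPKM in every luminous library and so were not higher there. The 18.2% is therefore an overestimate. Of the tested genes of the muscle, fat body and nerve lists, 0 met this rule. The summed level of the midgut list was 1781 to 2933 FPKM in the luminous libraries, with replicate 1 the highest, and 6183 to 7915 FPKM in the non-luminous libraries. That lead of luminous replicate 1 rested on RI129_013139, at 1296 FPKM there against 75.7 and 31.06 FPKM in luminous replicates 2 and 3. In the midgut list, 17 genes were at 0 in every luminous library. Of its 55 tested genes, 26 were called lower in the luminous organ and 3 higher. Those called lower include RI129_013066, RI129_013067 and RI129_013174, which are among the 10, whereas none of the adjacent genes was called with all libraries. RI129_013174 had 0.06472 FPKM in luminous replicate 1 and 0 FPKM in luminous replicates 2 and 3. These words also take in protease inhibitors, so the list does not mark midgut alone. The muscle words matched 14 genes, 1 of them a non-muscle myosin (zip, RI129_009866), and the fat body words matched 12, among them a pyruvate dehydrogenase kinase, its phosphatase and a vitellogenin receptor. These were left out after their values were seen. The muscle sum over the other 13 genes was 23769 to 24411 FPKM in the luminous libraries and 9363 to 12027 FPKM in the non-luminous libraries. The fat body sum over the other 9 genes was 1263 to 1971 FPKM in the luminous libraries and 1218 to 1313 FPKM in the non-luminous libraries. Neither sum was highest in luminous replicate 1. The nerve sum, over 15 genes, was 554.4 to 667.6 FPKM in the luminous libraries and 385.9 to 462.7 FPKM in the non-luminous libraries, and its words also match genes used by other tissues. The part of tissue make-up in the regucalcin levels was not tested.

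For RI129_004385 the most alike genes were SSR4, a subunit of the translocon-associated complex of the endoplasmic reticulum (RI129_011747, r = 0.999), a gene described as prestin, an anion transporter (RI129_013137, r = 0.997), and FAAH2, a fatty-acid amide hydrolase (RI129_010459, r = 0.995). SSR4 had 151.5, 213.2 and 211 FPKM in the luminous libraries, against 332, 368.8 and 413.6 FPKM in the non-luminous libraries. Like RI129_004385, all of them were lowest in luminous replicate 1 and lower in the luminous organ, at -0.96, -0.65 and -1.17 on the log2 scale in the same order (adjusted p = 0.00726, 0.0117 and 0.00448 by limma). They were chosen by likeness to RI129_004385 over these same libraries, so this shared pattern is no separate evidence. The call of the prestin-like gene was lost without non-luminous replicate 3 (adjusted p = 0.0535 by limma). In all, 303 of 7892 genes compared had r of at least 0.95 with RI129_004385.

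**Figure D5:**
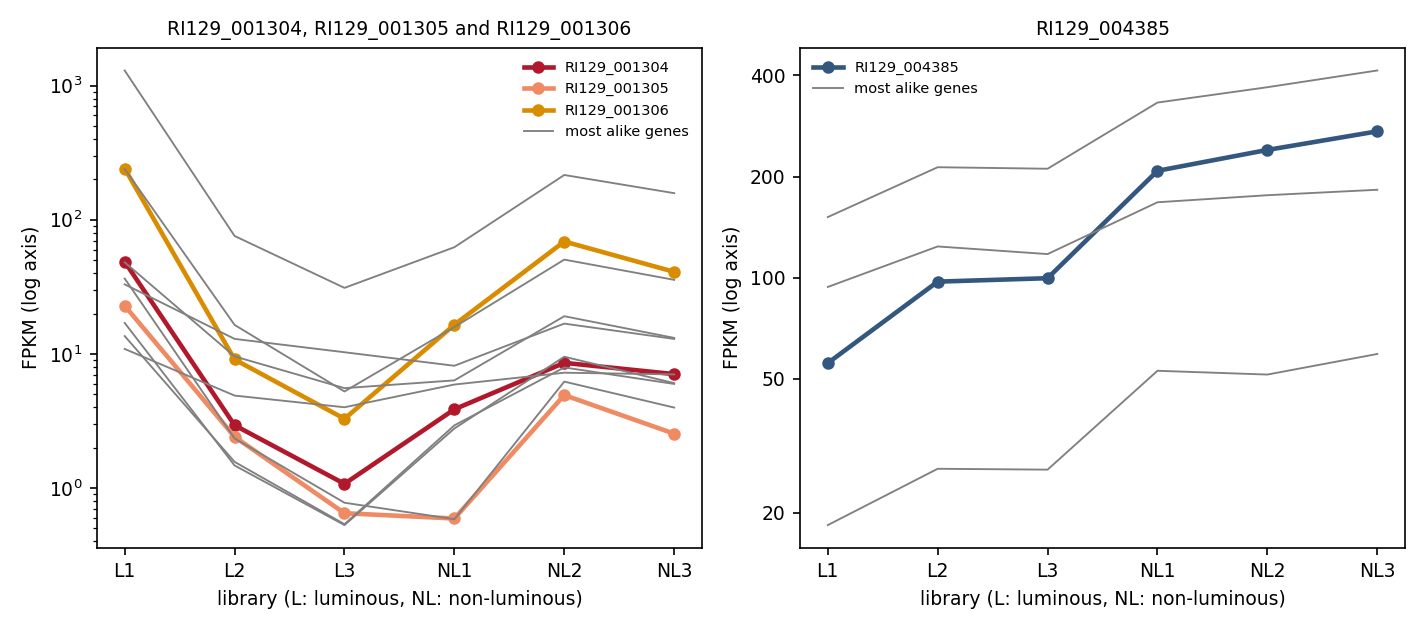
FPKM on a log axis in each library (L, luminous; NL, non-luminous) for the adjacent genes with the named genes most like them (left) and for RI129_004385 with its 3 most alike genes (right); lines join the values of 1 gene and libraries of an organ have no order. The adjacent genes are highest in L1 and, among non-luminous libraries, in NL2, whereas RI129_004385 and its 3 most alike genes are lowest in L1.

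RI129_001641 and RI129_002695 were most like genes of small range. For RI129_001641 these were Nep1, the protease neprilysin (RI129_007204, r = 0.983), ANAPC2, a subunit of the anaphase-promoting complex (RI129_009065, r = 0.982), and PPIH, a prolyl isomerase of the spliceosome (RI129_006633, r = 0.974). For RI129_002695 they were PHF5A, a splicing factor subunit (RI129_006369, r = 0.995), kappaB-Ras, a small GTPase-like protein (RI129_002793, r = 0.990), and AREL1, a ubiquitin ligase (RI129_007132, r = 0.973). None of these genes was called between the organs (adjusted p from 0.119 to 0.544 by limma).

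Genes with identifiers next to the adjacent genes did not show the excess in luminous replicate 1. Within 3 identifiers of a regucalcin gene, 23 other genes were listed and 18 tested, of which 1 was called higher and 2 lower, against 26.6% of all tested genes called. Next to the adjacent genes, RI129_001303, a TM2 domain protein gene, had 22.27, 23.43 and 19.68 FPKM in the luminous libraries, against 13.08, 13.33 and 20.15 FPKM in the non-luminous libraries. On the other side, RI129_001307, which has no description, was at most 0.844 FPKM in any library and was not tested. Neither was highest in luminous replicate 1. Mfsd6 (RI129_001309), a membrane transporter gene close by, was lower in the luminous organ at -0.88 on the log2 scale (adjusted p = 0.0388 by limma), a call kept in 6 of 14 alternatives.

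Beside RI129_004385, the mechanosensitive channel gene Piezo (RI129_004383) had 53.4, 46.57 and 37.88 FPKM in the luminous libraries, against 86.35, 77.53 and 85 FPKM in the non-luminous libraries. It was lower in the luminous organ, at -0.85 on the log2 scale (adjusted p = 0.00723 by limma), but highest among luminous libraries in replicate 1, where RI129_004385 was lowest. RpL4 (RI129_004384), a ribosomal protein gene between them in identifier order, was not called, at 0.36 (adjusted p = 0.0958 by limma). Beside RI129_001641, ANKDD1A (RI129_001640) was higher in the luminous organ at 0.80 (adjusted p = 0.00957 by limma). Beside RI129_002695, the undescribed RI129_002696 had 4.838, 0.7849 and 1.184 FPKM in luminous replicates 1, 2 and 3, against 1.147, 1.221 and 0.2665 FPKM in the non-luminous libraries.

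Genes of the processes that regucalcin is linked to were described through 3 lists. The luciferin list, genes described as luciferin 4-monooxygenase or luciferin sulfotransferase, had 39 tested members, of which 3 were called higher, 23 lower and 13 not called, so that 7.69% were higher and 59% lower, against 9.63% and 17.0% of all tested genes. Its median log2 difference was -1.11, against -0.09 over all tested genes. The list rests on descriptions alone, and whether its members act on luciferin was not tested. The luciferase-like RI129_003463 was higher in the luminous organ by 8.05 on the log2 scale (adjusted p = 4.02e-06 by limma), a direction opposite to that of RI129_004385. LST (RI129_005665), a luciferin sulfotransferase, the enzyme type that forms the storage form of luciferin, had 32.18, 73.82 and 61.2 FPKM in the luminous libraries, against 2.978, 4.339 and 2.109 FPKM in the non-luminous libraries. It was higher by 3.73 on the log2 scale (adjusted p = 0.000856 by limma). RI129_005665 was the only gene of that description called higher, while several others of that description were called lower. RI129_011075, the list's other abundant luciferase-like gene, had a difference of 0.56 and was not called (adjusted p = 0.0623 by limma).

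The calcium list held channels, pumps, exchangers and binding proteins. Of 40 tested members, 3 were called higher, 8 lower and 29 not called, with a median log2 difference of -0.21. The 27.5% called is near the 26.6% of all tested genes. Calmodulin-1 (RI129_002004), the main calcium sensor of the cytosol, had 746.1, 489.4 and 524.1 FPKM in the luminous libraries, against 500.4, 476 and 444.7 FPKM in the non-luminous libraries, and was not called (adjusted p = 0.265 by limma). The exchanger gene slc24a5 (RI129_006704), which codes for a protein that trades sodium for calcium and potassium, had 9.245, 4.707 and 9.231 FPKM in the luminous libraries, against 168.7, 86.77 and 187.8 FPKM in the non-luminous libraries. Its difference was -4.07 on the log2 scale (adjusted p = 0.00079 by limma), and that of the related Slc24a4 (RI129_004527) was -3.90 (adjusted p = 0.00195 by limma). The luminous and non-luminous libraries did not overlap for either exchanger. Calr (RI129_006571), the calcium store protein calreticulin, was lower at -0.65 (adjusted p = 0.0432 by limma), a call kept in 5 of 15 alternatives.

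The list of sugar lactone and pentose phosphate enzymes had 9 tested members, of which 1 was called higher, 3 lower and 5 not called, with a median log2 difference of 0.02. Over all tested genes 9.63% were called higher and 17.0% lower. Tktl2 (RI129_011740), a transketolase, had 156.6, 251.7 and 174.1 FPKM in the luminous libraries, against 312.8, 361.5 and 394.9 FPKM in the non-luminous libraries. It was lower in the luminous organ at -0.90 on the log2 scale (adjusted p = 0.0147 by limma), a call kept in 12 of 15 alternatives. Taldo1 (RI129_001733), a transaldolase, was lower at -0.39 (adjusted p = 0.0494 by limma), a call kept in 2 of 15 alternatives. ZW (RI129_003803), glucose-6-phosphate dehydrogenase, the entry enzyme of the pathway, was higher at 0.79 (adjusted p = 0.0484 by limma), a call kept in 6 of 15 alternatives. The count for this list therefore rests on genes near the threshold.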

How the data were processed

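The values were FPKM as deposited by the authors, 1 column per library for 6 libraries, and 0 value columns lacked a sample. Per the labels' protocols, a stranded mRNA kit was used on Trizol-extracted RNA. The submitters' processing notes name Trimmomatic, HISAT2, HTSeq and R 3.2.0 without their roles. Not given in the sources used here are the genome build, annotation, strand setting, filters and how reads were divided between similar copies, so the levels of similar regucalcin genes are uncertain to that extent.

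Reads were recovered from the steps of the FPKM values: whole to within 0.01 reads in 11794 (99.99%) of the 11795 genes with a value above 0 in 3 or more libraries. Differences are luminous minus non-luminous on log2(FPKM + 1), which understates changes of low genes, for the 9863 genes averaging 1 FPKM or more. They were fitted with limma 3.58.1 in R 4.3.3 (intensity trend, no block, two-sided), adjusted by Benjamini-Hochberg over all tested genes and called under 0.05. The fit and the read recovery were tested on simulated data. All 6 regucalcin genes passed the filter.

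The named genes were the regucalcin genes, genes within 3 identifiers, the 3 described genes with the highest r, and per list the 2 most abundant and the 2 called with the largest difference. A gene that this rule also names is not reported here. The members and the lists were chosen with earlier results of these data known. Alternatives were other pseudocounts, filters and scalings, no trend, a replicate block, limma's voom on recovered reads and each library left out.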

Additional observations from a re-analysis of the deposited data

How the results depend on the processing

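RI129_004385 was called lower in all 15 alternatives, at -1.68 to -1.27 on the log2 scale (adjusted p from 0.00182 to 0.0274 by limma), and RI129_002695 and RI129_001641 were not called in any of the alternatives run. RI129_001304, at 0.04, turned to -0.17 with a pseudocount of 0.1 and to -0.16 with voom, and ranged from -1.34 to 0.95 with 1 library left out. With 1 library left out, RI129_001305 ranged from -0.44 to 1.49 and RI129_001306 from -2.50 to 0.41, the extremes being without luminous replicate 1 and without luminous replicate 3. The number of regucalcin genes called was 1, and 1 to 3 with 1 library left out. The summed regucalcin difference of -91.3 FPKM ranged from -181 to -45.9 with 1 library left out and turned to 64.6 without RI129_004385. Genes called in all numbered 2626, and 1119 to 2648 with 1 library left out, 1119 being without non-luminous replicate 3.

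Called members of the luciferin list numbered 26, 16 with a minimum mean of 5 FPKM and 11 to 26 with 1 library left out. For the calcium list they numbered 11, and 7 to 13 with 1 library left out. For the sugar list they numbered 4, but 2 without a filter, 2 with a minimum mean of 5 FPKM, 2 with voom, 1 with the replicate block and 0 to 4 with 1 library left out. The cause was not tested in any of these.

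Higher and lower calls were 950 and 1676 as deposited, 1193 and 1381 after median-of-ratios rescaling and 1480 and 1272 after quantile normalization. The median difference of all genes was -0.095, -0.003 and 0.074 in the same order. RI129_004385 was called lower under each.

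Deviations from the organ mean correlated at -0.111, -0.00869 and -0.166 between libraries with the same replicate number, and at -0.0642 to 0.207 between the other pairs. With 3 libraries per organ this cannot show whether the numbers pair libraries, and the labels state no pairing. With the replicate block 1996 genes were called, and 1 regucalcin gene, RI129_004385 (adjusted p = 0.00855 by limma). RI129_001641 was not tested with a minimum mean of 5 FPKM. Depth limits RI129_001305 and RI129_001641, whose lowest libraries held 10 and 13 reads.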
